A study of Mus musculus with 9 samples.

Results

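The 10 MHC class I presentation genes H2-K1, H2-D1, B2m, Tap1, Tap2, Tapbp, Psmb8, Psmb9, Psmb10 and Nlrc5 were taken by gene name. All 10 were among the 13698 genes of the deposited expression table, and all 10 averaged 10 CPM (read counts scaled to a common library total) or more over the 9 libraries. They were measured by RNA sequencing in regulatory T (Treg) cells, the Foxp3-expressing CD4 T cells that restrain immune responses, sorted from spleen and lymph node of female mice of mixed C57BL/6 and 129 background (written C56Bl6/129 mix in the labels). Each of 3 groups had 3 libraries. The deficient cells were YFP+MHCII- cells of LRFffThpokff Foxp3 Cre-YFP/X mice, in which Cre made from a Foxp3 allele deletes floxed Zbtb7b (encoding Thpok) and Zbtb7a (encoding LRF), a pair of zinc-finger transcription factors. The animal controls were YFP-MHCII-CD25hi cells of the same 3 mice, which carry the same floxed alleles but use the unmodified Foxp3 allele and keep both factors. The genetic controls were YFP+MHCII- cells of 3 other mice labelled WT Foxp3 Cre-YFP/X, which use the Cre-YFP allele and keep both factors. The animal controls therefore share their mice with the deficient cells but not the Foxp3 allele in use or the sorting gate, and the genetic controls share the allele and gate but not the mice. The sources used here give no ages.

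MHC class I molecules show peptides from inside the cell to CD8 T cells and NK cells. The proteasome cuts proteins into peptides, and in lymphocytes the subunits Psmb8, Psmb9 and Psmb10 can take the place of the constitutive Psmb5, Psmb6 and Psmb7 to form the immunoproteasome. Tap1 and Tap2 pump the peptides into the endoplasmic reticulum, where tapasin, the product of Tapbp, helps load them onto a heavy chain such as H2-K1 or H2-D1 paired with beta-2 microglobulin, the product of B2m. Nlrc5 is a transactivator that acts on the promoters of some of these genes, and interferons raise many genes of the pathway together.

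Deposited values were log2 CPM after quantile normalization, which gives every library the same set of values and assigns them to genes by rank. The value of every gene is therefore set by its rank alone, and this is plainest in the most abundant genes. H2-D1 held rank 3 or 5 in every library and could only read 8136 or 6655 CPM, and H2-K1 held ranks 5 to 8. The depth of the libraries is unknown. Differences are on the deposited log2 scale, with no pseudocount, from limma with a mean-variance trend and Benjamini-Hochberg adjustment over all genes, and a gene was called at an adjusted p under 0.05. Nothing in the labels says how many cells went into a library. In bulk RNA, fewer cells of a type and less RNA per cell cannot be told apart.

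Zbtb7b was nearly absent from the deficient libraries, at 0.366, 0.266 and 0.147 CPM against 76.9 to 149 CPM in the 6 controls (limma adjusted p = 0.000103 and 8.75e-05). Zbtb7a stood at 86.3, 78.8 and 103 CPM in deficient libraries and 69.5 to 128 CPM in the controls, with no call; the sources used here do not say which part of the gene is removed, so its level is no check of the label. Foxp3 was 24.8 to 38.1 CPM in every library that used the Cre-YFP allele, deficient or genetic control, and 754 to 999.7 CPM in the animal controls. Cd3e was at 824 CPM or more in all 9 libraries. The CD8 co-receptor gene Cd8a, which belongs to the receptors that read class I, rose in the deficient cells from 13.2 to 27.2 CPM in genetic controls and 18.7 to 50.9 CPM in animal controls to 354 to 390 CPM (adjusted p = 0.00188 and 0.00345). Against animal controls the Cd8a call was lost without both libraries of mouse 232614 (adjusted p = 0.0542) and with the mouse as a fixed block (adjusted p = 0.170). The fixed-block fit called no gene of the table, so a call lost in it, here and below, is not particular to that gene.

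The promoters of the 2 heavy chains among the 10 genes, and of 2 related heavy chains described later, share the elements through which class I genes are known to be induced, so these are shown here. The sequences are from RefSeq, build GRCm38.p6, and 8 of the 10 genes had a promoter in that table (Tap2 and Nlrc5 are named only). Each is read 5′ to 3′ on the gene's own strand. Capitals mark a kappa-B-like match (GGGANTNCC) and an interferon-response-like match (GAANNGAAA, here on the opposite strand, so that it reads TTTCACTTC).
H2-K1, chr17:34000429-34000457, minus strand: GGGATTCCCcatctccacagTTTCACTTC
H2-D1, chr17:35262924-35262952, plus strand: GGGATTCCCcatctcctcagTTTCACTTC
H2-Q6, chr17:35424678-35424706, plus strand: GGGATTCCCcatctccccagTTTCACTTC
H2-Q7, chr17:35439023-35439050, plus strand: GGGATTCCCatctccccagTTTCACTTC
B2m, chr2:122147538-122147566, plus strand: ataagaacatGAAACTGAAaatgggaaag
By the GENCODE M21 annotation the H2-D1 stretch lies inside an annotated exon of H2-D1, whose model there starts further upstream than the RefSeq start; the other 4 stretches overlap no annotated exon. In B2m the capitals mark the other order of the interferon-response-like letters (GAAANNGAA), and it had no kappa-B-like match.

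Both strands of 27025 promoters, each 250 bases before to 50 bases after a start, were searched. The kappa-B-like letters were in 3.95% of them, GAANNGAAA in 7.56% and GAAANNGAA in 8.57%. The GAANNGAAA form was added after the heavy chain sequences had been seen; overlaps with other motifs were counted. Tap1, Tapbp, Psmb8, Psmb9 and Psmb10 had none of these 3 matches in the window. Psmb8 had a match to the interferon-gamma activated sequence TTCNNNGAA, held by 8.47% of promoters. These matches are descriptions of letters, not of bound sites. Tap1 and Psmb9 are transcribed in opposite directions from neighbouring starts on chromosome 17. In the RefSeq table the starts are 34187556 and 34187330, with 225 bases between them, while in the GENCODE M21 coordinates used below the Psmb9 model reaches past the start of Tap1, so that the gene models overlap.

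None of the 10 genes was called in deficient cells against genetic controls, where 119 of 13698 genes (0.869%) were called, or against animal controls, where 122 genes (0.891%) were called. None was called between the control groups, where 5 genes (0.0365%) were. At an unadjusted p under 0.05 there were 3 of the 10 genes against genetic controls, 2 against animal controls and 0 between controls, beside 10.6%, 11.9% and 6.62% of all genes. Most of the differences were small and negative: 8 of 10 lay below 0 against each control group, with a median of -0.20 on the log2 scale against genetic controls and -0.10 against animal controls. The median over all genes was 0.04 in both comparisons. Both comparisons use the same deficient libraries, so the counts are not independent of each other.

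In 2 of the 10 genes, Tap2 and Tapbp, every deficient library was lower than all 6 controls, a pattern found in 3.33% of all genes. Against genetic controls 3 of the 10 (Tap2, Tapbp and Psmb9) were lower without overlap and 0 were higher, beside 7.28% of all genes that were lower and 8.44% that were higher. Against animal controls the count was also 3 lower (H2-K1, Tap2 and Tapbp) and 0 higher, beside 8.1% and 7.85% of all genes.

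**Figure D1:**
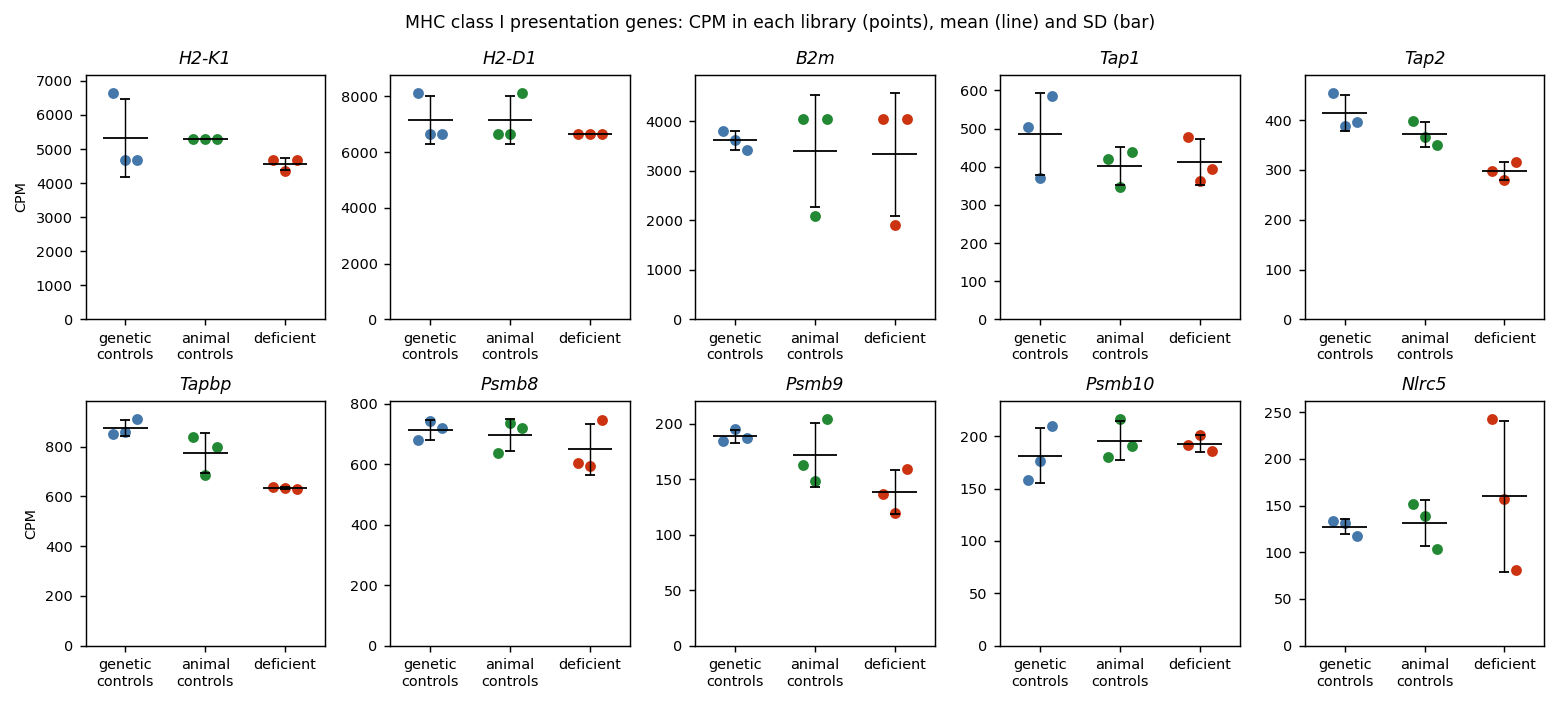
CPM (linear axes from 0) of the 10 class I presentation genes in each library; points are libraries, lines group means and bars the SD over 3 libraries. In Tap2 and Tapbp the deficient points lie below all 6 controls, and in B2m 1 animal control and 1 deficient point, both of mouse 232614, lie far below the rest.

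The heavy chains were among the most abundant messages in these cells. H2-K1 (ENSMUSG00000061232, chromosome 17, 33996017 to 34000347, GRCm38) read 6655, 4670.3 and 4670.3 CPM in the genetic controls, 5289 CPM in each animal control, and 4670.3, 4363 and 4670.3 CPM in the deficient cells. H2-D1 (ENSMUSG00000073411, chromosome 17, 35262730 to 35267499) read 6655 CPM in every deficient library, and 6655 or 8136 CPM in the controls. For H2-K1 all 3 deficient libraries were below the animal controls, but 2 of them equalled 2 genetic controls; for H2-D1 the groups overlapped. These steps of 1 or 2 ranks give an SD of 0 in some groups, which reflects the normalization and not the precision of the measurement.

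The log2 difference of H2-K1 was -0.20 (SE 0.12, 95% interval -0.46 to 0.06, limma adjusted p = 0.578) against genetic controls and -0.21 (95% interval -0.47 to 0.05, adjusted p = 0.516) against animal controls. Without genetic control library 124, whose H2-K1 was the highest, the difference from genetic controls shrank to -0.03 (adjusted p = 0.858). The same omission left H2-K1 with less spread within groups, and it was then called against animal controls at an unchanged difference (adjusted p = 0.0450). For H2-D1 the difference was -0.10 (95% interval -0.30 to 0.11) against either control group, with adjusted p = 0.790 and 0.763. Of the 50-base windows of the transcript, 8.79% in H2-K1 and 14.3% in H2-D1 also occur in transcripts of other genes, so a small part of the reads of heavy chains may be counted for a relative or not at all.

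B2m (ENSMUSG00000060802, chromosome 2, 122147686 to 122153083) differed more between mice than between groups. It read 3803, 3623 and 3419 CPM in the genetic controls. In the deficient cells of mice 142114, 232614 and 432614 it read 4052, 1902 and 4052 CPM, and in the animal controls of the same mice 4052, 2091 and 4052 CPM. Both libraries of mouse 232614 were thus far below the other 7, at ranks 43 and 38 against ranks 9 to 13. The log2 difference of the deficient cells was -0.20 (95% interval -0.90 to 0.50, adjusted p = 0.887) against genetic controls and -0.05 (95% interval -0.74 to 0.65, adjusted p = 0.988) against animal controls. Without both libraries of mouse 232614, an alternative chosen after these values were seen, the differences were 0.17 (adjusted p = 0.412) and 0 (adjusted p = 1.0). The 0 is set by rank: B2m held rank 9 in every remaining deficient and animal control library, and quantile normalization gives that rank a single value.

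B2m was not alone in that mouse. Among the 8242 genes that averaged 10 CPM or more, 71 had both libraries of mouse 232614 apart from the other 7 by at least 0.5 on the log2 scale in the same direction, 54 lower and 17 higher; the same count was 46 for each of the other two mice. Within 5 Mb on either side of B2m, 3 of 68 such genes were apart in mouse 232614, 0 in mouse 142114 and 1 in mouse 432614. The other two were Adal, a deaminase gene (chromosome 2, 121140428 to 121156680), and Tmem87a, a membrane protein gene (chromosome 2, 120355312 to 120404113). Tmem87a read 90.5 and 70.4 CPM in the deficient and animal control libraries of mouse 232614 and 0.782 to 9.90 CPM in the other 7. Adal read 52.3 and 33.6 CPM in mouse 232614 and 0.0317 to 17.4 CPM in the rest. These genes were chosen after their values were seen, and no test was made of them; why the mouse differs was not tested.

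**Figure D2:**
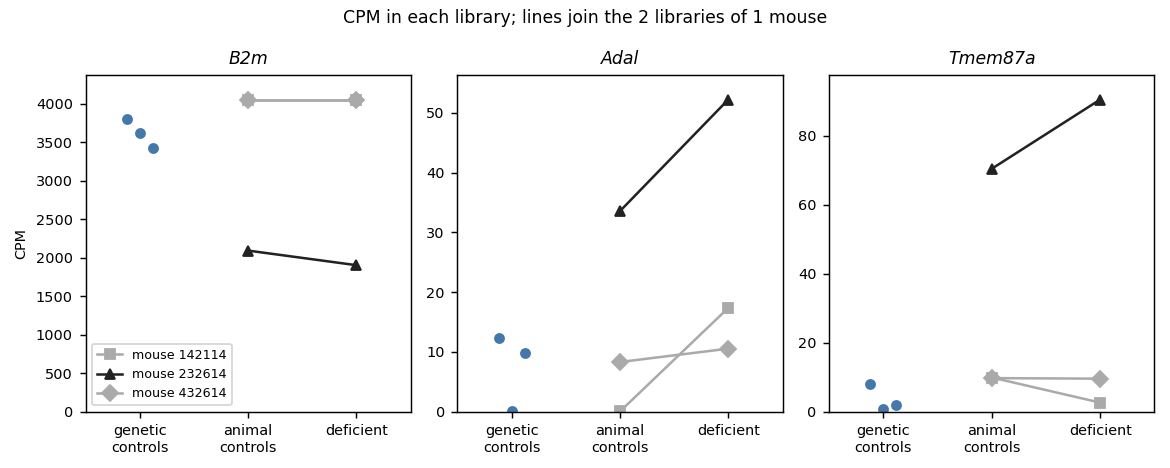
CPM (linear axes from 0) of B2m, Adal and Tmem87a; points are libraries and lines join the animal control and deficient libraries of 1 mouse. Both libraries of mouse 232614 are low in B2m (2091 and 1902 CPM) and high in the other two genes.

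Tapbp (ENSMUSG00000024308, chromosome 17, 33915899 to 33929292), the gene of the loading chaperone tapasin, gave the most regular difference among the 10. It read 852, 860.2 and 912 CPM in genetic controls, 839, 686 and 800.4 CPM in animal controls, and 638, 635 and 629 CPM in the deficient cells. The deficient libraries were within 10 CPM of each other and below all controls, while the genetic controls were above all animal controls. The log2 difference was -0.46 (SE 0.09, 95% interval -0.67 to -0.26, adjusted p = 0.0605) against genetic controls, or 72.5% of their level, and -0.28 (95% interval -0.49 to -0.08, adjusted p = 0.252) against animal controls. The difference passed the threshold without animal control library 232614 (adjusted p = 0.0431), with the same log2 value, and over all alternatives the adjusted p ran from 0.0431 to 0.562. Tapbp was also the only one of the 10 genes in which the control groups did not overlap, beside 10.4% of all genes that did not overlap in either direction (log2 difference 0.18, adjusted p = 0.778).

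Tap2 (ENSMUSG00000024339, chromosome 17, 34203527 to 34216321), a chain of the peptide transporter, showed a similar size of difference. It read 455, 389 and 397 CPM in genetic controls, 399, 366 and 349 CPM in animal controls, and 298, 279.5 and 317 CPM in the deficient cells, with no overlap. The log2 difference was -0.47 (SE 0.12, 95% interval -0.74 to -0.20, adjusted p = 0.136) against genetic controls and -0.32 (95% interval -0.58 to -0.05, adjusted p = 0.335) against animal controls. Its partner chain Tap1 (ENSMUSG00000037321, chromosome 17, 34187553 to 34197225) did not share the pattern by library. Tap1 read 504, 371 and 584 CPM in genetic controls, 421, 346 and 439 CPM in animal controls, and 478, 362 and 395 CPM in the deficient cells, so that all groups overlapped. Its log2 difference was -0.23 (95% interval -0.64 to 0.19, adjusted p = 0.741) against genetic controls and 0.03 (95% interval -0.38 to 0.44, adjusted p = 0.984) against animal controls. The difference between the genes was not tested.

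**Figure D3:**
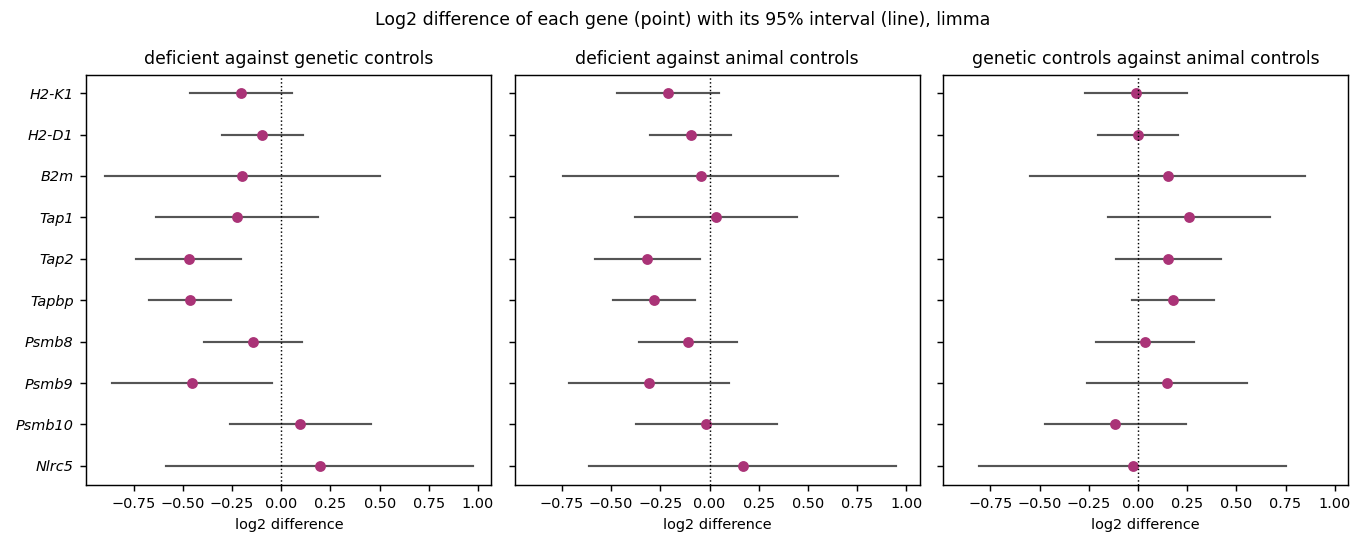
Log2 difference (horizontal axis) of each of the 10 genes with its 95% interval from limma, in 3 panels, 1 for each comparison. The intervals of Tap2 and Tapbp lie below 0 in both comparisons of the deficient cells and that of Psmb9 against genetic controls alone; these intervals are not adjusted for the number of genes.

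Of the immunoproteasome subunits, Psmb9 (ENSMUSG00000096727, chromosome 17, 34181987 to 34187764) differed most. It read 184, 195 and 187 CPM in genetic controls, 163, 148 and 204 CPM in animal controls, and 137, 119.6 and 159 CPM in the deficient cells. The deficient libraries were below all genetic controls and overlapped with the animal controls. The log2 difference was -0.45 (SE 0.18, 95% interval -0.86 to -0.05, adjusted p = 0.411) against genetic controls and -0.31 (95% interval -0.71 to 0.10, adjusted p = 0.562) against animal controls.

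Psmb8 (ENSMUSG00000024338, chromosome 17, 34197721 to 34201454) read 678, 743 and 721 CPM in genetic controls, 638, 736 and 718 CPM in animal controls, and 605, 595 and 747 CPM in the deficient cells. Its groups overlapped in every comparison, with a log2 difference of -0.14 against genetic controls (adjusted p = 0.717) and of -0.11 against animal controls (adjusted p = 0.783). Psmb10 (ENSMUSG00000031897, chromosome 8, 105935735 to 105938444), which lies outside the MHC, read 158, 176 and 210.0 CPM in genetic controls, 181, 217 and 190.3 CPM in animal controls, and 192, 202 and 186 CPM in the deficient cells. The deficient values fell inside the range of the controls, with log2 differences of 0.10 (95% interval -0.26 to 0.46) and -0.02 (95% interval -0.38 to 0.34).

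Each inducible subunit was also set against the constitutive subunit it can replace. The ratio of CPM of Psmb9 to Psmb6 was 0.934, 0.844 and 0.748 in the genetic controls, 0.825, 0.548 and 0.719 in the animal controls, and 0.591, 0.479 and 0.581 in the deficient cells. The deficient ratios were below all genetic controls (mean log2 ratio lower by 0.61) with a two-sided exact permutation p of 0.1, the smallest that 3 libraries against 3 allow; against animal controls the exact p was 0.3. Ratios of Psmb8 to Psmb5 and of Psmb10 to Psmb7 overlapped between the deficient cells and both control groups (two-sided exact permutation p of 0.3 to 0.9). A ratio of CPM between genes depends on transcript length as well as on abundance, so only its change between groups is read here. Psmb5, Psmb6 and Psmb7 were themselves not called.

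Nlrc5 (ENSMUSG00000074151, chromosome 8, 94434356 to 94527272), the transactivator, was the most variable of the 10 in the deficient cells. In mice 142114, 232614 and 432614 it read 243, 157 and 81.1 CPM in the deficient cells and 151, 139 and 104 CPM in the animal controls. The genetic controls read 133, 131 and 118 CPM. Mouse 142114 was the highest and mouse 432614 the lowest in both compartments, and the deficient cells spanned the whole range of the controls. The log2 difference was 0.19 (95% interval -0.59 to 0.97, adjusted p = 0.908) against genetic controls and 0.17 (95% interval -0.61 to 0.95, adjusted p = 0.923) against animal controls. Differences anywhere inside these intervals, in either direction, are compatible with these libraries.

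Per kilobase of annotated exon, the order of the levels over all libraries was B2m (4011 CPM per kb), H2-D1 (3323), H2-K1 (3059), Psmb8 (422), Tapbp (263), Tap1 (147), Psmb10 (145), Psmb9 (123), Tap2 (105) and Nlrc5 (17.2). Neighbours in that order did not all keep it in each library. B2m was above H2-D1 in 7 libraries and below it in the 2 of mouse 232614. H2-D1 was above H2-K1 in 6 of 9 libraries, Tap1 above Psmb10 in 5 and Psmb10 above Psmb9 in 6; in the genetic controls the mean of Psmb9 (139.6 CPM per kb) was above that of Psmb10 (138). The other 5 pairs of neighbours kept their order in all 9 libraries. All these levels are set by rank, as stated above, and those of H2-D1 and H2-K1 by a few ranks.

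Across the 9 libraries the 10 genes did not move as a block. Their mean centred log2 level was 0.03 to 0.15 in the genetic controls, -0.09 to 0.07 in the animal controls and -0.23 to 0.02 in the deficient cells, lowest in the deficient cells of mouse 232614, the library with the lowest B2m. Over the 9 libraries Pearson's r was 0.858 between Tap2 and Tapbp, 0.808 between Tapbp and Psmb9 and 0.725 between Tap2 and Psmb9. It was 0.744 between H2-K1 and H2-D1, whose values come from a few ranks, and -0.764 between Psmb8 and Nlrc5. The libraries share their groups and mice, so these are descriptions with no test. Outside the 10, the genes whose level over the 9 libraries was most like the mean of the 10 were Dnlz (r = 0.941), Zswim1 (0.930), Rhot2 (0.919), Lman1 (0.916), Malt1 (0.910) and Smco4 (0.909).

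Other class I heavy chains gave the only call among the other genes of the pathway inside the presenting cell. Of 25 listed, 15 were in the table; 0 were called against genetic controls, and 1, H2-Q6, was called lower against animal controls. H2-Q6 (ENSMUSG00000073409, chromosome 17, 35424850 to 35430055), a Qa-2 family heavy chain, read 298, 268 and 276 CPM in genetic controls, 415, 394 and 377 CPM in animal controls, and 87.1, 184 and 110.5 CPM in the deficient cells. All 3 deficient libraries were below all 6 controls. It fell by 1.71 on the log2 scale (SE 0.24, adjusted p = 0.0102) against animal controls, to 30.6% of their level. Against genetic controls the log2 difference was -1.21 (SE 0.24, adjusted p = 0.0558), which passed the threshold in 4 of 17 alternatives: without deficient library 232614 (adjusted p = 0.00702), without both libraries of that mouse (adjusted p = 0.0291), and with all libraries when genes under a mean of 10 CPM were left out (adjusted p = 0.0339) or log2(CPM + 1) was used (adjusted p = 0.0493). The call against animal controls was lost with the mouse as a fixed block (adjusted p = 0.284), where no gene of the table was called, in the 6 libraries alone (adjusted p = 0.0731) and without the trend (adjusted p = 0.0892).

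The identity of these reads is uncertain: 32% of the 50-base windows of H2-Q6 also occur in transcripts of other genes, 13.9% in H2-Q7 and 12.3% in H2-Q4. H2-Q7, which encodes another Qa-2 chain, read 439.9, 436 and 483 CPM in genetic controls, 476, 363 and 569 CPM in animal controls, and 259, 316 and 429 CPM in the deficient cells. Its log2 difference was -0.47 (adjusted p = 0.467) against genetic controls, without overlap, and -0.50 (adjusted p = 0.385) against animal controls, with overlap. H2-T22 and H2-T23, which encode nonclassical heavy chains, overlapped with both control groups and had log2 differences of -0.15 to -0.29 (adjusted p of 0.584 to 0.827). H2-Q7, H2-T22 and H2-T23 are named for their abundance, chosen after their values were seen. Shared windows made up 34.9% of H2-Q7, 44.7% of H2-T22 (37.9% with H2-T10) and 28.8% of H2-T23. In the other direction, H2-T10 had the highest log2 differences of the listed heavy chains that averaged 10 CPM or more, 1.85 and 0.69, with no call. It read 125, 14.0 and 86.3 CPM in the deficient cells and 5.60 to 56.1 CPM in the controls, with overlap.

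**Figure D4:**
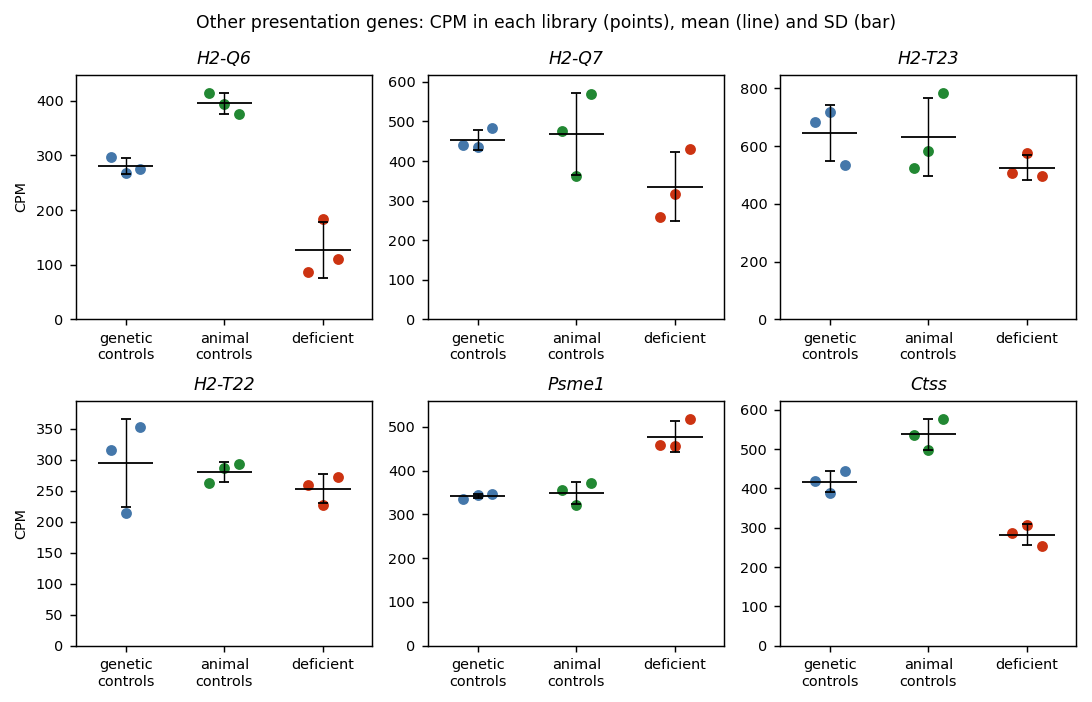
CPM (linear axes from 0) of 4 other class I heavy chains, of the proteasome activator gene Psme1 and of the class II pathway protease gene Ctss; points are libraries, lines group means and bars the SD over 3 libraries. The deficient points of H2-Q6 and Ctss lie below, and those of Psme1 above, all 6 controls.

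The rest of the class I pathway gave no call. This held for 20 genes of peptide trimming, loading and chaperones, 14 constitutive genes of the proteasome core, 10 genes of proteasome assembly and activators, 21 genes of its regulatory particle, 21 transcription regulators and 20 interferon-gamma signalling genes in the table, against either control group. The medians of these 6 lists lay between -0.18 and 0.17 on the log2 scale against genetic controls and between -0.05 and 0.05 against animal controls.

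Some single genes came near the threshold. Psme1, a subunit of the activator that caps the immunoproteasome, read 336, 344 and 346 CPM in genetic controls, 356, 322 and 371 CPM in animal controls, and 458, 457 and 518 CPM in the deficient cells. All deficient libraries were above all 6 controls, by 0.48 on the log2 scale against genetic controls (adjusted p = 0.100) and by 0.45 against animal controls (adjusted p = 0.119). Of all genes, 8.44% were higher without overlap against genetic controls and 7.85% against animal controls. The share above all 6 controls was not counted. Its partner subunit Psme2 overlapped with both control groups (log2 differences of -0.09 and -0.06). Hsp90b1, an endoplasmic reticulum chaperone gene, was 148, 114 and 140.1 CPM in the deficient cells and 182 to 246 CPM in the controls, with a log2 difference of -0.80 (adjusted p = 0.0583) against animal controls and -0.53 (adjusted p = 0.233) against genetic controls. Against animal controls it passed the threshold with the mouse as a random block (adjusted p = 0.04996) and when genes under a mean of 10 CPM were left out (adjusted p = 0.0485).

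Among interferon-gamma signalling genes, the guanylate-binding protein genes Gbp2 and Gbp5 had the lowest adjusted p. Gbp5 read 31.3, 56.6 and 54.8 CPM in the deficient cells and 88.2 to 171 CPM in the 6 controls (log2 difference -1.17 with adjusted p = 0.161 against genetic controls, -1.40 with adjusted p = 0.0887 against animal controls). Gbp2 had a log2 difference of -1.02 (adjusted p = 0.0625) against animal controls and overlapped with the genetic controls. It passed the threshold against animal controls when genes under a mean of 10 CPM were left out (adjusted p = 0.0414) and without deficient library 432614 (adjusted p = 0.0425). Irf1, an interferon-induced transcription factor that acts on class I promoters, had a log2 difference of 0.20 against genetic controls (adjusted p = 0.794) and of 0.19 against animal controls (adjusted p = 0.772), and its deficient libraries overlapped both control groups. Of the transcription regulators, Ezh2, a histone methyltransferase gene, was 9.34 to 25.3 CPM in the deficient cells and 36.0 to 57.3 CPM in the controls, a log2 difference of -1.52 against genetic controls (adjusted p = 0.187) and of -1.45 against animal controls (adjusted p = 0.200).

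**Figure D5:**
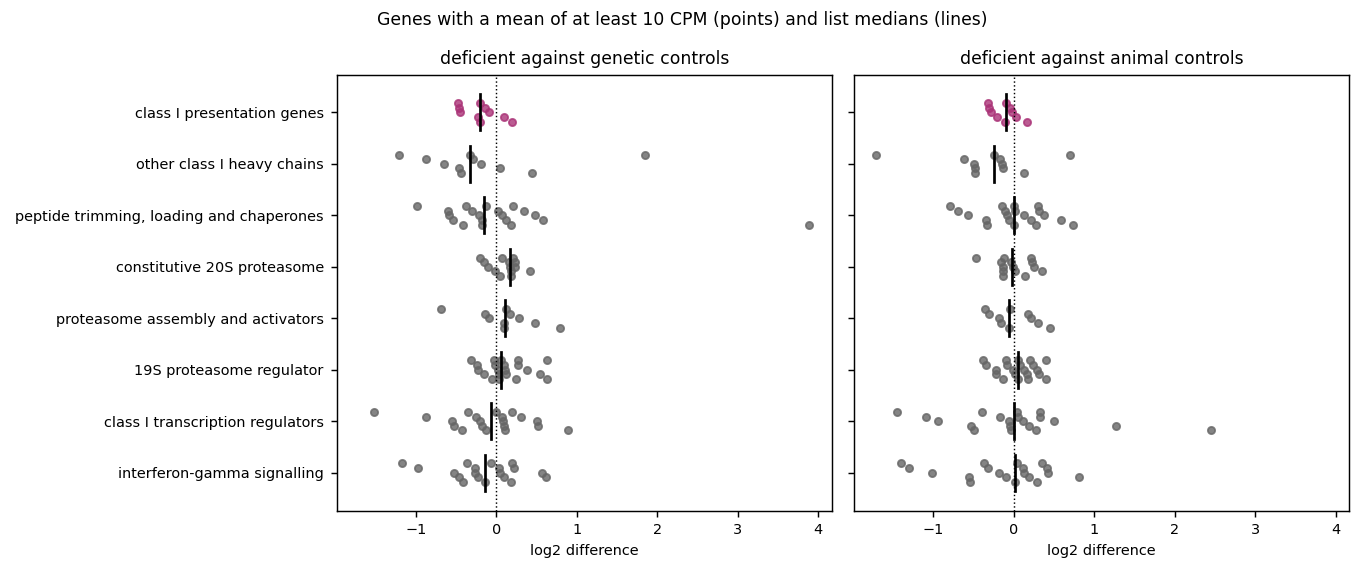
Log2 difference (horizontal axis) of every gene that averaged 10 CPM or more among the 10 class I presentation genes and in 7 other lists, against genetic controls (left) and animal controls (right); points are genes and vertical lines list medians. The 10 presentation genes lie between -0.47 and 0.19 on the left and between -0.32 and 0.17 on the right.

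Of 14 genes listed as class I receptors on T and NK cells, 7 were measured. Against genetic controls 2 rose (Cd8a and Cd8b1, the chains of CD8) and 1 fell (Lilrb4). Against animal controls 1 rose (Cd8a) and 1 fell (Lilrb4). Lilrb4 encodes an inhibitory receptor, and its place in the list does not show that it reads class I. Cd8b1 read 237, 195 and 235 CPM in the deficient cells and 15.1 to 86.4 CPM in the controls; its call against genetic controls (adjusted p = 0.0370) was lost in 7 of the 9 fits that left out 1 library, without both libraries of mouse 232614 (0.0918), in the 6 libraries compared (0.0847) and without the trend (0.141). Lilrb4 was at most 0.0260 CPM in the deficient cells and 3.16 to 8.88 CPM in the controls. Its calls were lost without any 1 of the 3 genetic controls (adjusted p of 0.0561 to 0.0931 against them) and without animal control 142114 or 432614 (0.0621 and 0.0543 against animal controls). They were also lost in the 6 libraries compared (adjusted p = 0.0880 and 0.0738) and without both libraries of mouse 232614 (0.0892 and 0.109), against genetic controls on log2(CPM + 1) (0.0851), where the log2 difference was -2.54 in place of -9.22, and against animal controls with the mouse as a fixed block (0.311).

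Class II genes and markers of other cell types were read in the same libraries; all 3 groups had been sorted as negative for MHC class II protein. Of 11 measured class II presentation genes, 2 fell against animal controls and 0 were called against genetic controls. Ctss, a lysosomal protease gene, was 286, 306 and 254 CPM in the deficient cells, 498 to 576 CPM in the animal controls and 389 to 444 CPM in the genetic controls; it fell by 0.93 on the log2 scale (adjusted p = 0.00617) against animal controls, a call lost without both libraries of mouse 232614 (adjusted p = 0.0510), without the trend (adjusted p = 0.173) and with the mouse as a fixed block (adjusted p = 0.284). Cd86, a costimulatory ligand gene, was 23.3 to 29.4 CPM in the deficient cells and 56.4 to 97.7 CPM in the controls; it fell by 1.56 on the log2 scale (adjusted p = 0.0382) against animal controls, a call lost in each fit that left out 1 library (adjusted p of 0.0621 to 0.110), without both libraries of mouse 232614 (0.152), in the 6 libraries compared (0.0989), without the trend (0.0675) and with the mouse as a fixed block (0.302).

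The summed level of the 11 measured of 14 B-cell markers was 698 to 921 CPM in the deficient cells, 1320 to 1870 CPM in the animal controls and 705 to 1106 CPM in the genetic ones. Nearly all of it was Ighm (629 to 1770.0 CPM), while Cd79a was at most 17.8 CPM and Ebf1 was at most 0.0357 CPM outside 2 animal controls. The summed level of the 6 measured of 16 myeloid and dendritic markers was 29.0 to 66.9 CPM in the deficient cells, 4.21 to 27.6 CPM in the animal controls and 13.1 to 327 CPM in the genetic ones. The 327 CPM was in genetic control library 8619 alone, beside 13.1 and 18.9 CPM in libraries 124 and 8800. The 6 measured of 10 NK markers summed to 60.6 to 125 CPM in the deficient cells and 17.4 to 58.7 CPM in the controls, and the 9 measured of 10 CD8 T-cell markers to 926 to 1017 CPM against 154 to 336 CPM. Prf1, which is in both lists, was the only NK marker that averaged 10 CPM or more. The CD8 sum includes Cd8a and Cd8b1, given above. Log2 differences were below 0 against each control group in 3 of the 6 NK markers and 3 of the 9 CD8 markers. The 6 measured of 10 erythroid and platelet markers summed to 0.833 to 40.8 CPM in the deficient cells and 0.0817 to 76.1 CPM in the controls. Genetic control library 8619 held the 76.1 CPM and deficient library 232614 the 40.8 CPM, while every other library was at most 1.13 CPM. The 14 Treg markers summed to 6521 to 6945 CPM in the deficient cells, 9981 to 10680 CPM in the animal controls and 7464 to 8720.0 CPM in the genetic ones. That sum includes Foxp3, which followed the allele in use as given above, and the T-cell genes Cd3e, Cd3d, Cd3g, Trac and Cd4. Against genetic controls 10 of the 14 log2 differences were below 0, with 3 genes called lower and 1 called higher. Against animal controls 13 were below 0, with 5 called lower and 0 higher. The part of these differences in the values of Tap2, Tapbp, Psmb9 and H2-Q6 was not tested.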

How the data were processed

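RNA of 9 libraries was sequenced; bcl2fastq 1.8.4, STAR 2.4.0h, limma and build mm10 are named per the submitters' processing notes, and low-input kits per the labels' protocols. The sources used here name no counting tool. The authors deposited log2 values, from -7.77 to 13.42 over the whole table. Library sums of 999258 to 999307 CPM, and equal values at equal ranks, mark them as quantile-normalized log2 CPM. H2-D1, for example, read 8136 CPM wherever it held rank 3 and 6655 CPM wherever it held rank 5. Of 13702 rows, 4 exact duplicates were dropped. A single limma-trend model (limma 3.58.1, R 4.3.3) of the 3 group means over all 9 libraries gave 3 two-sided contrasts; it was tested on simulated data. Replicates carry different numbers in the labels, read here as mice, and p-values measure the spread between these libraries. Deficient and animal control libraries pair by mouse: after group means were removed, correlations within a mouse were 0.0165, 0.0319 and 0.0122 over 8242 genes, against -0.0271 to 0.0113 between mice. The 10 genes and all lists were chosen with earlier results of these data known. Beyond the 10, genes were named from those called in a list, or else from the 2 with the lowest adjusted p. Other genes were named where a result turns on them. Not all genes picked in this way are described. Among those left out, Nrp1, Cd4 and Tnfrsf4 were called lower and Nkg7 higher in the deficient cells against both control groups. Against genetic controls the calls held in 16 (Nrp1), 14 (Cd4), 6 (Tnfrsf4) and 9 (Nkg7) of 17 alternatives. Against animal controls they held in 17, 15, 10 and 9 of 18, in the same order. Alternatives changed the spread model, libraries, block, filter, pseudocount (1) and scaling. Coordinates and exon lengths are from GENCODE M21. Protein sequences were not analysed here.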

Additional observations from a re-analysis of the deposited data

How the results depend on the processing

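Across the alternatives none of the 10 genes was called, apart from 2 fits that each left out a library. Leaving out each library in turn gave 0 to 1 of the 10 genes called in deficient cells against genetic controls (1, Tapbp, without animal control 232614) and 0 to 1 against animal controls (1, H2-K1, without genetic control 124). Between controls the count was 0 throughout, with a lowest adjusted p of 0.340. With the mouse as a random replicate block (consensus correlation 0.0493) 0 of the 10 were called, at lowest adjusted p of 0.0604 and 0.221; with the mouse as a fixed block 0 were called (lowest 0.303), and 0 genes of the whole table. Among single-gene values under alternatives, 2122 kept direction and side of the threshold, 12 gained a call and 87 lost one. Another 64 changed direction with no call in either fit, whatever the size of the change, and 0 of the called values reversed. Where a left-out library is a third-group control, the cause is the construction of the fit: the difference stays and the shared spread changes. The count over all genes was less stable. Against genetic controls 119 genes were called (46 higher, 73 lower), but 22 (10 and 12) in the 6 libraries compared and 39 (8 and 31) without mouse 232614, and against animal controls 122 (42 and 80), but 52 (19 and 33) and 35 (5 and 30). Between controls 5 genes were called, and 32 (9 and 23) without the trend; the cause was not tested. The depth is unknown, so no counting interval bounds these values.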
